A study of Homo sapiens with 6 samples.

Results

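De novo nucleotide synthesis was examined through 10 enzyme genes, PRPS1, PRPS2, PPAT, GART, PAICS, ADSL, ATIC, CAD, DHODH and UMPS, taken as every probe that carries one of these symbols in the deposited signal table. They are 10 of the 31334 symbols on the array and are read by 16 of its 47231 probes. All 16 probes and all 10 genes lay above the estimated background on at least 3 arrays and were tested. The samples were U2OS cells, a human osteosarcoma line, in 2 groups of 3: cells with a stable knockdown of TUSC4 by shRNA, and cells with a control shRNA, which the labels also call parental. The vector, the number of shRNAs or clones and the origin of the replicates in separate cultures are not stated in the labels, so the p-values reflect sample-to-sample spread alone, part or all of which may be technical. All 6 arrays lay on 1 BeadChip with each group at neighbouring positions, so position and group cannot be told apart.

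Phosphoribosyl pyrophosphate (PRPP), the activated ribose on which nucleotides are built, is made by the PRPP synthetases PRPS1 and PRPS2. Purines are assembled stepwise on PRPP by PPAT, GART, PFAS, PAICS, ADSL and ATIC, ending in inosine monophosphate, whereas the pyrimidine ring is built first by CAD and DHODH and then joined to PRPP by UMPS. TUSC4 (NPRL2) is a subunit of GATOR1, which restrains the growth kinase mTORC1. In mammalian cells mTORC1 is known to stimulate both branches, the pyrimidine one through phosphorylation of CAD by S6 kinase and the purine one in part through ATF4 and the mitochondrial folate enzyme MTHFD2. Tumour cells that divide quickly depend on these pathways for RNA and DNA precursors.

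The targeted gene was measured first. TUSC4 had log2 normalized intensities of 8.50, 8.51 and 8.77 with the TUSC4 shRNA, against 9.75, 9.78 and 9.80 with the control shRNA. No knockdown array reached a control array, and TUSC4 changed by -1.18 ± 0.10 on the log2 scale (SE, limma adjusted p = 9.16e-07). Median signal per array ran from 113.8 to 126.3 in the TUSC4 shRNA group and from 122.8 to 128.1 in the control group, and between 20378 and 21485 probes per array lay above background. Of 7 markers of osteosarcoma and mesenchymal cells 5 were measured, among them vimentin (VIM), with a mean signal of 12557 ± 957 with the TUSC4 shRNA and 11823 ± 273 with the control shRNA (SD, n = 3 each). COL1A2 and TWIST1 did not pass the filter. The collagen gene COL1A1 had a mean signal of 926 ± 202 with the TUSC4 shRNA and 2071 ± 269 with the control shRNA (SD, n = 3 each), and the log2 value of RUNX2, a bone transcription factor, differed by -0.68 ± 0.11 (SE, limma adjusted p = 0.000277). Thus 2 of the 5 measured mesenchymal markers were called lower, and their part in the results was not tested. Of 8 markers of epithelial, blood and endothelial cells 1 passed the filter, EPCAM, with 186 ± 18.5 with the TUSC4 shRNA and 207 ± 10.2 with the control shRNA (SD, n = 3 each). In RNA from whole cultures, fewer cells with a transcript and less of it per cell cannot be told apart.

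Among the synthesis enzymes some were lower in TUSC4 shRNA cells and none was called higher, and the largest difference of the 10 was that of PRPS1. PRPS1, PPAT, PAICS and UMPS fell, which is 4 of 10 genes, beside 13.6% of the 15300 genes tested that were lower and 26.9% that were called in either direction. The count higher was 0 of 10, beside 13.3% of all genes. The threshold was a limma adjusted p under 0.05 over all genes tested. The median log2 fold change of the 10 was -0.20, against 0.00 over all genes tested, and 8 of the 10 values were below 0. Without PRPS1 the median of the other 9 was -0.16. The groups did not overlap, with the TUSC4 shRNA group lower, for 5 of 10 genes (the 4 called ones and ADSL), beside 20.5% of all genes. Separation in the other direction was seen for 0 of 10, beside 19.9%, and in either direction for 40.5% of all genes. Counted by probe, 4 of 16 probes were lower, beside 12.5% of the 20657 kept probes that were lower and 24.3% called in either direction. The plot of each enzyme by sample shows these values on axes of equal span.

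**Figure D1:**
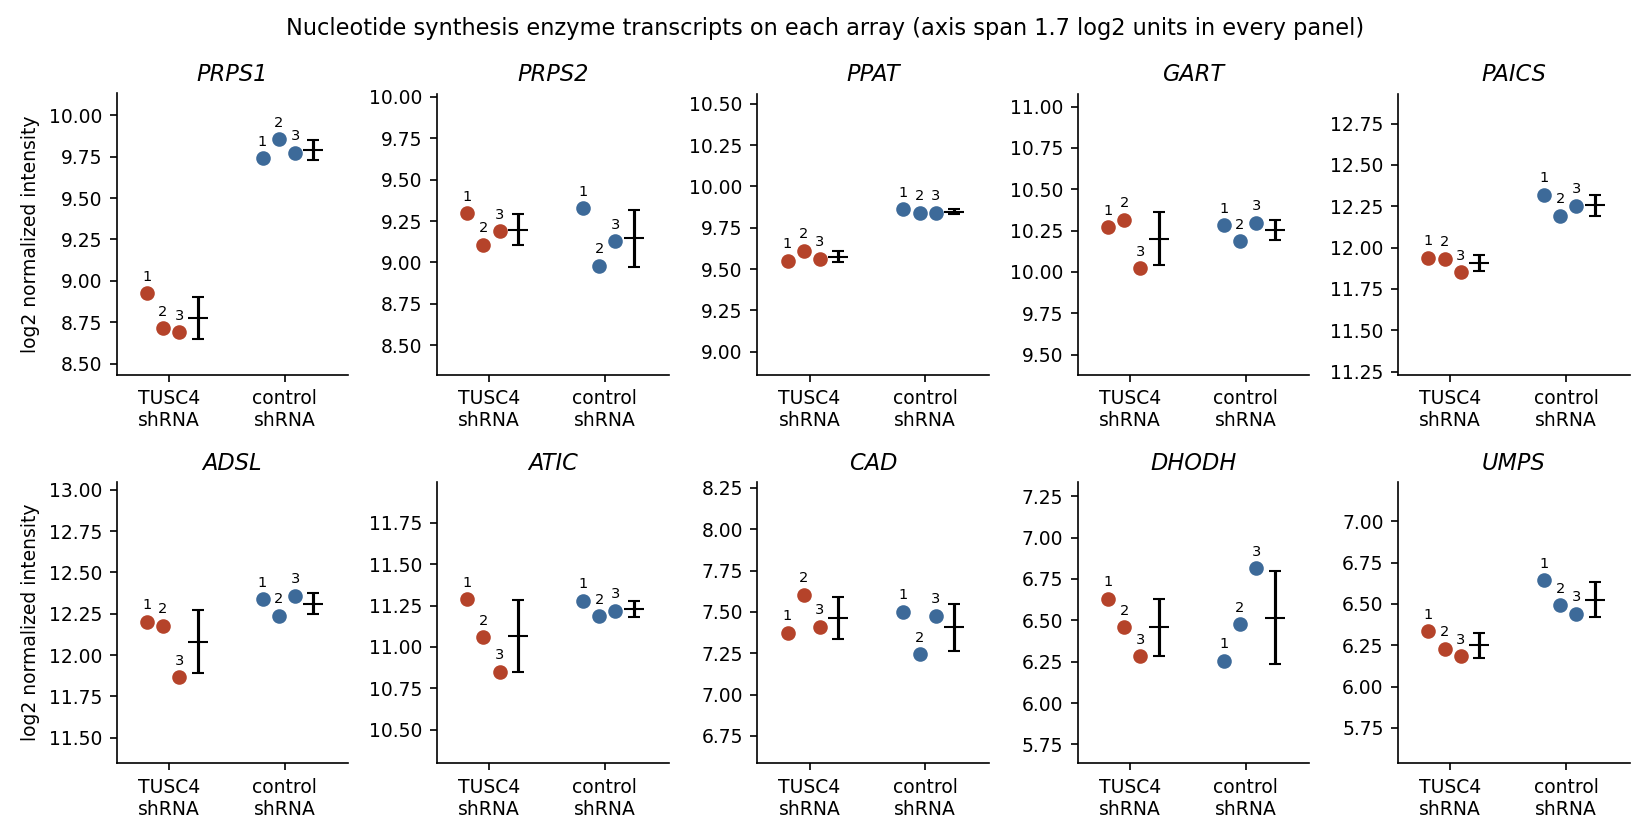
Log2 normalized intensity of the brightest probe of each of the 10 enzymes (vertical axis) on the 3 TUSC4 shRNA arrays (red, left) and the 3 control shRNA arrays (blue, right). Numbers are replicate numbers and the bars beside the points are the mean and SD. PRPS1 separates by about 1 log2 unit, PPAT, PAICS and UMPS by smaller amounts, and the other genes have groups that overlap or lie close.

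Of the PRPP synthetase genes PRPS1 fell, and PRPS2 did not pass the test. PRPS1 encodes the widely expressed isoform, the one affected in several inherited disorders of purine metabolism. Its deposited signals were 473, 388 and 460 with the TUSC4 shRNA, against 1097, 988 and 958 with the control shRNA. After normalization PRPS1 had log2 intensities of 8.92, 8.71 and 8.69 in the TUSC4 shRNA group and 9.74, 9.86 and 9.77 in the control group. All 3 knockdown arrays were far below all 3 controls. The log2 fold change of PRPS1 was -1.01 ± 0.10 (SE, 95% interval -1.23 to -0.80, limma adjusted p = 3.62e-06), or 49.5% of the level in control cells on the scale that includes the offset of 50. A fall of at least 2-fold that passed the test was seen for 0.725% of all genes, 111 in number. The PRPS1 call held under every alternative run, with log2 fold changes between -1.29 and -0.88. PRPS1 is read by only 1 probe, so the alternatives in the probe rule could not change its value.

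PRPS2 encodes the other synthetase isoform. Its log2 intensities were 9.30, 9.11 and 9.19 with the TUSC4 shRNA, against 9.33, 8.98 and 9.13 with the control shRNA, and the groups overlapped. The log2 fold change of PRPS2 was 0.05 ± 0.11 (95% interval -0.18 to 0.28, limma adjusted p = 0.772), and its other probe gave 0.10 ± 0.10 (limma adjusted p = 0.516 over all probes). Both intervals, the other probe's running from -0.11 to 0.32, leave out a fall of the size of that of PRPS1. The sign of the PRPS2 value turned with median scaling (-0.19) and without normalization (-0.23), where the median of all genes shifted down, and without control replicate 2 (-0.03). The within-array difference of log2 values, PRPS1 minus PRPS2, averaged -0.42 ± 0.07 with the TUSC4 shRNA and 0.64 ± 0.23 with the control shRNA (SD, n = 3 each). Only the change in this difference is read, since probes differ in brightness. It lay between -0.50 and -0.37 on the knockdown arrays and between 0.41 and 0.88 on the control arrays, with no overlap. The fold changes differed by -1.07 (exact two-sided permutation test p = 0.1, the smallest that 3 against 3 allow, 0.2 after adjustment over 2 pairs).

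The RefSeq sequences upstream of both synthetase genes are shown because the fold changes of these related genes lay far apart. They cover the 250 bases before the annotated start (GRCh38.p14, plus strand), chrX:107628260-107628509 for PRPS1 and chrX:12791162-12791411 for PRPS2. Capitals mark the motifs searched on both strands, the GC box GGGCGG (or its reverse complement CCGCCC) and the CCAAT box, with the E-box CACGTG and the ATF4-type element TGATGNAA, which occur in neither window.
PRPS1: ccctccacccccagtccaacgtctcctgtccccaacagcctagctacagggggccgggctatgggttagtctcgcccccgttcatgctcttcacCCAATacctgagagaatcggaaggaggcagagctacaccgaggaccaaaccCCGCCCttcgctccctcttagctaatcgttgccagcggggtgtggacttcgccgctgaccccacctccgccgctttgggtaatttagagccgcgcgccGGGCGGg
PRPS2: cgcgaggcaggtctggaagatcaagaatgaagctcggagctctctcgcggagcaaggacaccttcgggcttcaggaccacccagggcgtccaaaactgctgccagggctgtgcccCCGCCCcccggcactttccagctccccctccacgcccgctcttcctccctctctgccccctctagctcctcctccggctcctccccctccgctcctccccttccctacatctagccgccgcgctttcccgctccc
The PRPS1 window held 2 GC boxes and 1 CCAAT box and the PRPS2 window 1 GC box and no CCAAT box, with 63.6% and 67.6% G and C. Of 35116 RefSeq windows of the same length 42.6% held a GC box, 32% a CCAAT box, 6.34% the E-box and 3.14% the ATF4-type element. These matches describe the letters in the window only.

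PRPS1 lies on the long arm of the X chromosome among genes of which many were lower. Of its 50 nearest measured genes, a comparison chosen with results in view, 19 were lower and 4 higher past the threshold, with a median log2 fold change of -0.13. For the 491 measured genes of the X chromosome with a position the counts were 107 lower and 54 higher, with a median of -0.05. Over all genes tested 13.6% were lower and 13.3% higher. The 6 neighbours lower than PRPS1 lay 18 to 27 genes away, BEX1 at -1.65, BEXL1 at -1.48, BEX4 at -1.46, TCEAL8 at -1.31, TMSB15A at -1.30 and BEX2 at -1.12, named after their values were seen. BEX and TCEAL genes are similar in sequence, so their probes may share signal. The measured genes on either side of PRPS1 were not called: FRMPD3 stood at -0.06 (log2 fold change, limma adjusted p = 0.774) and TSC22D3 at 0.23 (limma adjusted p = 0.101), while the next gene on one side, NUP62CL, was called lower at -0.28. Relative to the median of its 50 neighbours PRPS1 stood at -0.88. The part of the chromosomal region in the PRPS1 value was not tested.

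**Figure D2:**
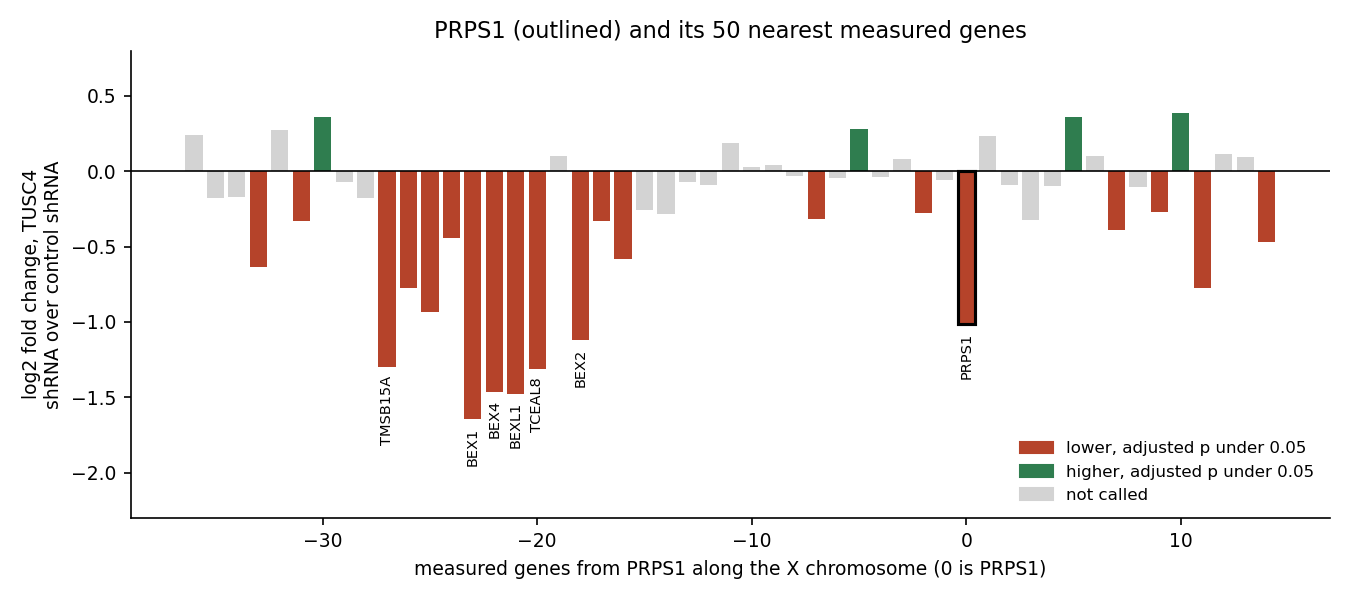
Log2 fold change (TUSC4 shRNA over control shRNA, vertical axis) of PRPS1 and its 50 nearest measured genes, in their order along the X chromosome, with PRPS1 at 0 (horizontal axis, in genes). Red bars were called lower, green bars higher and grey bars neither. The 6 bars deeper than that of PRPS1 lie 18 to 27 genes away, a stretch that also holds TCEAL5 at 0.10, and the bars next to PRPS1 are at -0.06 and 0.23.

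The entry enzyme of purine synthesis and its divergent neighbour fell together by small amounts. PPAT, the amidotransferase that commits PRPP to the purine pathway and is inhibited by its end products, had log2 intensities of 9.55, 9.61 and 9.56 with the TUSC4 shRNA, against 9.86, 9.84 and 9.84 with the control shRNA. The groups were tight and did not overlap. PPAT changed by -0.27 ± 0.09 on the log2 scale (SE, limma adjusted p = 0.0368), or 82.8% of the control intensity, and by -0.51 with median scaling. This call was lost without any 1 of the 6 arrays, control or TUSC4 shRNA (limma adjusted p of 0.0574 to 0.101), although the fold change stayed between -0.29 and -0.26. Over all alternatives its adjusted p ran from 0.00442 to 0.101, and it was also lost with an offset of 16 (0.0716), without the filter (0.0539) and with the replicate number as a block (0.0541).

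PAICS, a fused enzyme that carries out a carboxylation and the ligation of aspartate, had log2 intensities of 11.94, 11.93 and 11.85 with the TUSC4 shRNA, against 12.32, 12.19 and 12.25 with the control shRNA. Every knockdown array was below every control array. PAICS changed on the log2 scale by -0.35 ± 0.09 (SE, limma adjusted p = 0.0119). A second bright probe gave -0.32 ± 0.10 (limma adjusted p = 0.0250 over all probes), while the remaining probe, a dim one, gave 0.0037 ± 0.11 (limma adjusted p = 0.986). With the mean of the 3 probes the value was -0.22 and the call was lost (limma adjusted p = 0.0776). Leaving out control replicate 1 ended it as well (-0.32, limma adjusted p = 0.0555). Across the alternatives for PAICS the adjusted p ran from 0.00246 to 0.0776.

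PPAT and PAICS are transcribed away from each other from neighbouring starts, and the 136 bases between those starts are shown because both genes fell. They lie at chr4:56435616-56435751 (GRCh38.p14, RefSeq), printed on the plus strand in the direction of PAICS, with GC boxes in capitals.
PPAT-PAICS: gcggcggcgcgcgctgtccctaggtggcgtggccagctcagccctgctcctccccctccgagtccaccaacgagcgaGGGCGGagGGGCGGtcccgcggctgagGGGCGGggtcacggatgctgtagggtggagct
The stretch is 75% G and C and holds 3 GC boxes, no CCAAT box, no E-box and no ATF4-type element. It is shorter than the windows of 250 bases for which the RefSeq shares are given. The full 250 bases upstream of PPAT (chr4:56435616-56435865), which reach beyond it, hold 1 E-box. At least 1 window held an E-box for 3 of the 9 members with such windows, PPAT, ATIC and DHODH, of which PPAT alone was called. A GC box was found for 8 of the 9, a CCAAT box for 4 and the ATF4-type element for 0. These counts are per gene, over 13 windows. The RefSeq share of 6.34% for the E-box is per window, so the 2 are not on the same scale. RefSeq lists other starts for PAICS as well. The within-array difference PPAT minus PAICS averaged -2.33 ± 0.05 with the TUSC4 shRNA and -2.41 ± 0.05 with the control shRNA (SD, n = 3 each). The fold changes differed by 0.07 (exact two-sided permutation test p = 0.2, also 0.2 after adjustment over 2 pairs). The smallest p that 3 against 3 allow is 0.1, so no difference of any size could have passed 0.05. That difference changed sign to -0.05 with median scaling. Of the 50 measured genes nearest to PPAT, PAICS among them, 16 were lower and 5 higher, with a median of -0.11. Relative to that median PPAT stood at -0.16 and PAICS at -0.23. For the 422 measured genes of chromosome 4 with a position the counts were 58 lower and 82 higher, with a median of 0.04. Over all genes tested 13.6% were lower and 13.3% higher. SRP72, the measured gene beyond PAICS, was also called lower at -0.30 (limma adjusted p = 0.0284). AASDH, on the other side of PPAT, was not called at 0.15 (limma adjusted p = 0.271). Both are named after their values were seen. DCK, described below under purine salvage, lies 15 genes from PPAT at -0.65. The part of the chromosomal region in these values was not tested.

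For the remaining purine enzymes the fold changes were below 0 and did not pass the test. GART, a fused enzyme of several early steps, had log2 intensities of 10.27, 10.32 and 10.02 with the TUSC4 shRNA, against 10.28, 10.19 and 10.30 with the control shRNA. Knockdown replicate 3 was the lowest and the other arrays were intermixed. For GART the log2 fold change was -0.05 ± 0.10 (limma adjusted p = 0.753), with an interval of -0.27 to 0.17. Its second probe, whose groups did not overlap, gave -0.28 ± 0.11 (limma adjusted p = 0.0778 over all probes), and its remaining, dim probe -0.10 ± 0.10 (limma adjusted p = 0.557), with 1 of 3 knockdown and 2 of 3 control arrays above background.

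ADSL, the lyase that acts both on the way to inosine monophosphate and in making AMP from it, had log2 intensities of 12.20, 12.18 and 11.86 with the TUSC4 shRNA, against 12.34, 12.24 and 12.36 with the control shRNA. The groups did not overlap, though the gap was small and knockdown replicate 3 lay lowest. The log2 fold change of ADSL was -0.23 ± 0.11 (limma adjusted p = 0.131), and without that array it was -0.12. ATIC, which carries out the last steps to inosine monophosphate, had 11.29, 11.06 and 10.85 with the TUSC4 shRNA, against 11.28, 11.19 and 11.22 with the control shRNA. Its groups overlapped, and replicate 3 was again the lowest knockdown array. In log2 terms ATIC differed by -0.16 ± 0.11 (limma adjusted p = 0.318), with -0.05 without that array and -0.27 without TUSC4 replicate 1. With median scaling ADSL had -0.33 (limma adjusted p = 0.0379) and ATIC -0.35 (limma adjusted p = 0.0443), both called. That scaling moved the median of all genes by -0.12.

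**Figure D3:**
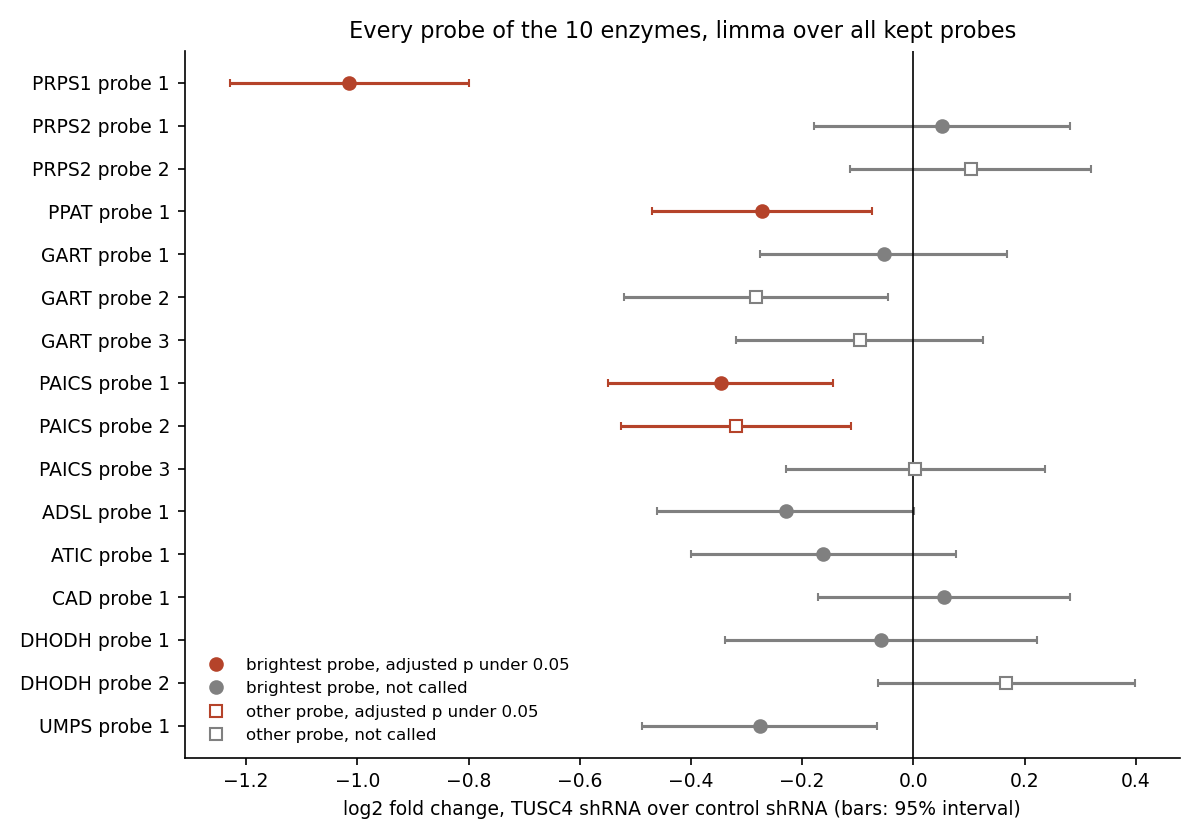
Log2 fold change (TUSC4 shRNA over control shRNA, horizontal axis) of all 16 probes of the 10 enzymes, with 95% intervals from limma fitted over all kept probes. Circles are the brightest probe of a gene, squares its other probes, and red marks an adjusted p under 0.05. The PRPS1 interval lies below all others, both bright PAICS probes agree within their error, and the GART, PAICS and DHODH probes of 1 gene differ in position.

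Of the pyrimidine enzymes 1 of 3 fell, and that call was close to the threshold. Over all genes tested 13.6% were lower and 26.9% were called in either direction, and 3 genes are too few to compare with these shares. CAD, the large fused protein of the first pyrimidine steps, had log2 intensities of 7.37, 7.61 and 7.41 with the TUSC4 shRNA, against 7.50, 7.24 and 7.48 with the control shRNA. The groups overlapped. In log2 terms CAD differed by 0.06 ± 0.11 (95% interval -0.17 to 0.28, limma adjusted p = 0.752), and its sign turned with median scaling (-0.14) and without normalization (-0.18). Phosphorylation of the CAD protein is outside what these arrays measure.

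DHODH, the mitochondrial dehydrogenase of the pathway and the target of leflunomide, was dim. Its log2 intensities were 6.63, 6.46 and 6.28 with the TUSC4 shRNA, against 6.26, 6.48 and 6.81 with the control shRNA, and the groups overlapped. Its brighter probe was above background on 2 of 3 knockdown and 2 of 3 control arrays, and the group difference on the log2 scale was -0.06 ± 0.13 (limma adjusted p = 0.793). Its other probe gave 0.17 ± 0.11 (limma adjusted p = 0.301 over all probes).

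UMPS, which attaches the finished ring to PRPP and releases UMP, had log2 intensities of 6.33, 6.23 and 6.18 with the TUSC4 shRNA, against 6.64, 6.49 and 6.44 with the control shRNA. The groups did not overlap, but all values were near background, with 1 of 3 knockdown arrays and all 3 control arrays above it. The log2 fold change of UMPS was -0.28 ± 0.10 (SE, limma adjusted p = 0.0484). The call was lost in 12 of 15 alternatives, including the test of every probe (limma adjusted p = 0.0547). Among them were also the fits without control replicate 1 (-0.21), control replicate 2 (-0.29), control replicate 3 (-0.32), TUSC4 replicate 2 (-0.27) and TUSC4 replicate 3 (-0.25). Its adjusted p ran from 0.0214 to 0.214, and its value from -0.47 with an offset of 16 to -0.13 without background correction.

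**Figure D4:**
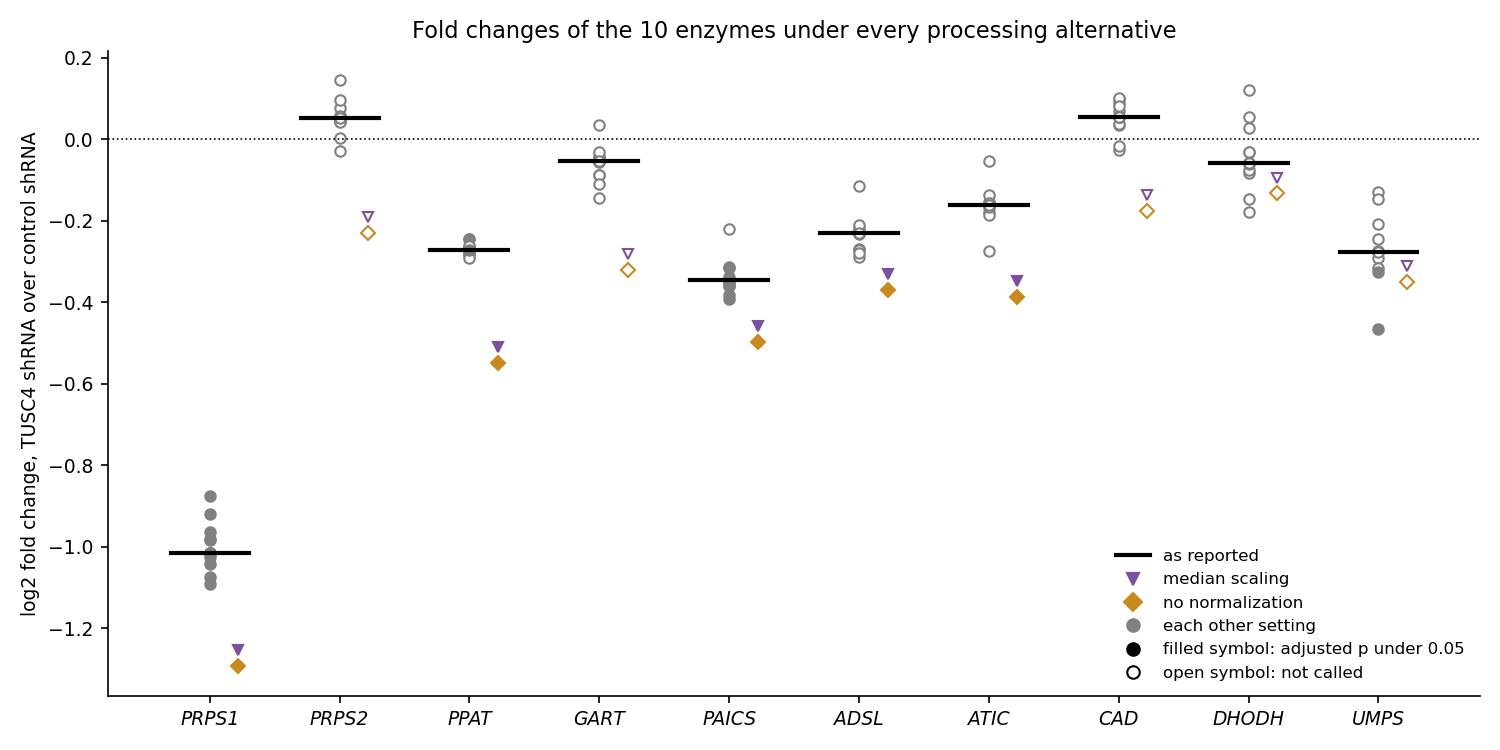
Log2 fold change (TUSC4 shRNA over control shRNA, vertical axis) of each enzyme as reported (black line) and under each alternative. Triangles are median scaling, diamonds no normalization and circles the other settings. Filled symbols passed an adjusted p of 0.05 and open ones did not. Median scaling and no normalization lie below the reported value for all 10 genes, and PRPS1 is filled throughout.

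The wider nucleotide pathways were described through 9 lists of textbook members, of which 86 of 99 genes were measured. Of these 86 genes, 13 were higher and 16 lower past the threshold, a share of 33.7% beside 26.9% of all genes. The other steps of purine synthesis had 2 of 9 genes lower, none higher and a median log2 fold change of -0.09, a share called of 22.2% beside 26.9% of all genes. IMPDH2, the enzyme that limits guanine nucleotide synthesis, had log2 intensities of 12.27, 12.32 and 12.02 with the TUSC4 shRNA, against 12.60, 12.63 and 12.62 with the control shRNA. All knockdown arrays were below all controls. IMPDH2 changed on the log2 scale by -0.41 ± 0.10 (limma adjusted p = 0.00747), and its call held in all 15 alternatives. PRPS1L1, an intronless relative of PRPS1 known from testis, had -0.35 ± 0.10 (limma adjusted p = 0.0148). Its sequence is close to that of PRPS1, so the transcript behind this dim signal is uncertain. Its call was lost without control replicate 2 or TUSC4 replicate 1, with values from -0.51 to -0.19 over the alternatives. PFAS, the purine enzyme that acts between steps of GART and PAICS, had -0.14 (limma adjusted p = 0.340) and is named after its values were seen. With median scaling 4 genes of this list were lower, beside 22.6% of all genes under that setting.

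In the folate list, which supplies one-carbon units, 2 of 16 genes rose and 2 fell, with a median of 0.01. The share called was 25%, beside 26.9% of all genes, and so near the background. ALDH1L2, a mitochondrial formyl-folate dehydrogenase, rose by 0.54 ± 0.12 (limma adjusted p = 0.00300). Its probe was dim, and the value ran from 0.29 without background correction to 0.80 with an offset of 16. MTHFD2, the mitochondrial folate enzyme of the ATF4 response, had log2 intensities of 11.59, 11.77 and 11.48 with the TUSC4 shRNA, against 11.02, 11.41 and 11.14 with the control shRNA. The groups did not overlap, with a narrow gap. It rose by 0.42 ± 0.12 (limma adjusted p = 0.0124), a call lost with median scaling (0.26), without normalization (0.22) and without control replicate 1, control replicate 3 or TUSC4 replicate 2. SHMT2, which feeds serine carbon into that pathway, had -0.29 ± 0.09 (limma adjusted p = 0.0300), with the call lost in 6 of 15 alternatives, among them the fits without control replicate 1, control replicate 2 or any 1 of the TUSC4 arrays. FPGS, which retains folates in cells, was at least 1.14-fold lower (limma adjusted p = 0.0256), not above background on any knockdown array. That bound sets the control mean against, on each knockdown array, the higher of the probe's own value and the lowest value among probes above background. Its call was lost in 5 of 14 alternatives, among them the fits without control replicate 1, control replicate 3 or TUSC4 replicate 2.

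In the pentose phosphate list, which leads from glucose to ribose phosphate, 2 of 7 genes rose, PGD by 0.30 ± 0.10 and TALDO1 by 0.26 ± 0.09, with limma adjusted p of 0.0461 and 0.0450. The share called was 28.6%, near the 26.9% of all genes. Both are close to the threshold, and the list had 0 genes higher with median scaling or no normalization. Median scaling brought the median of these 7 genes to 0.050, against 0.21 as reported. PGD was lost without control replicates 1 or 3 or TUSC4 replicates 1 or 2, and TALDO1 without any 1 array.

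Purine salvage, which recovers bases and nucleosides, was the list with the most genes lower. Of 13 measured genes 6 fell and none rose, beside 13.6% of all genes that were lower. Over the alternatives 6 or 7 were lower. The median of the list was -0.26 and ran from -0.32 without normalization to -0.072 without the filter, where more of its genes, dim ones, were tested. DCK, deoxycytidine kinase, which also acts on purine deoxynucleosides, had log2 intensities of 8.97, 8.94 and 8.81 with the TUSC4 shRNA, against 9.54, 9.57 and 9.55 with the control shRNA. The groups were well apart. DCK changed on the log2 scale by -0.65 ± 0.09 (limma adjusted p = 0.000129), but by -0.34 with the mean of its probes, which therefore differ. NP (PNP), the purine nucleoside phosphorylase, had -0.55 ± 0.09, the methylthioadenosine phosphorylase MTAP -0.56 ± 0.11 and the adenosine kinase ADK -0.44 ± 0.10. The calls of these 4 genes held in all 15 alternatives, although without normalization, where the median of all genes was also lower, NP had -0.83 and ADK -0.72. HPRT1, the salvage enzyme that itself consumes PRPP and is named here after its values were seen, had -0.05 ± 0.11 (limma adjusted p = 0.777).

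**Figure D5:**
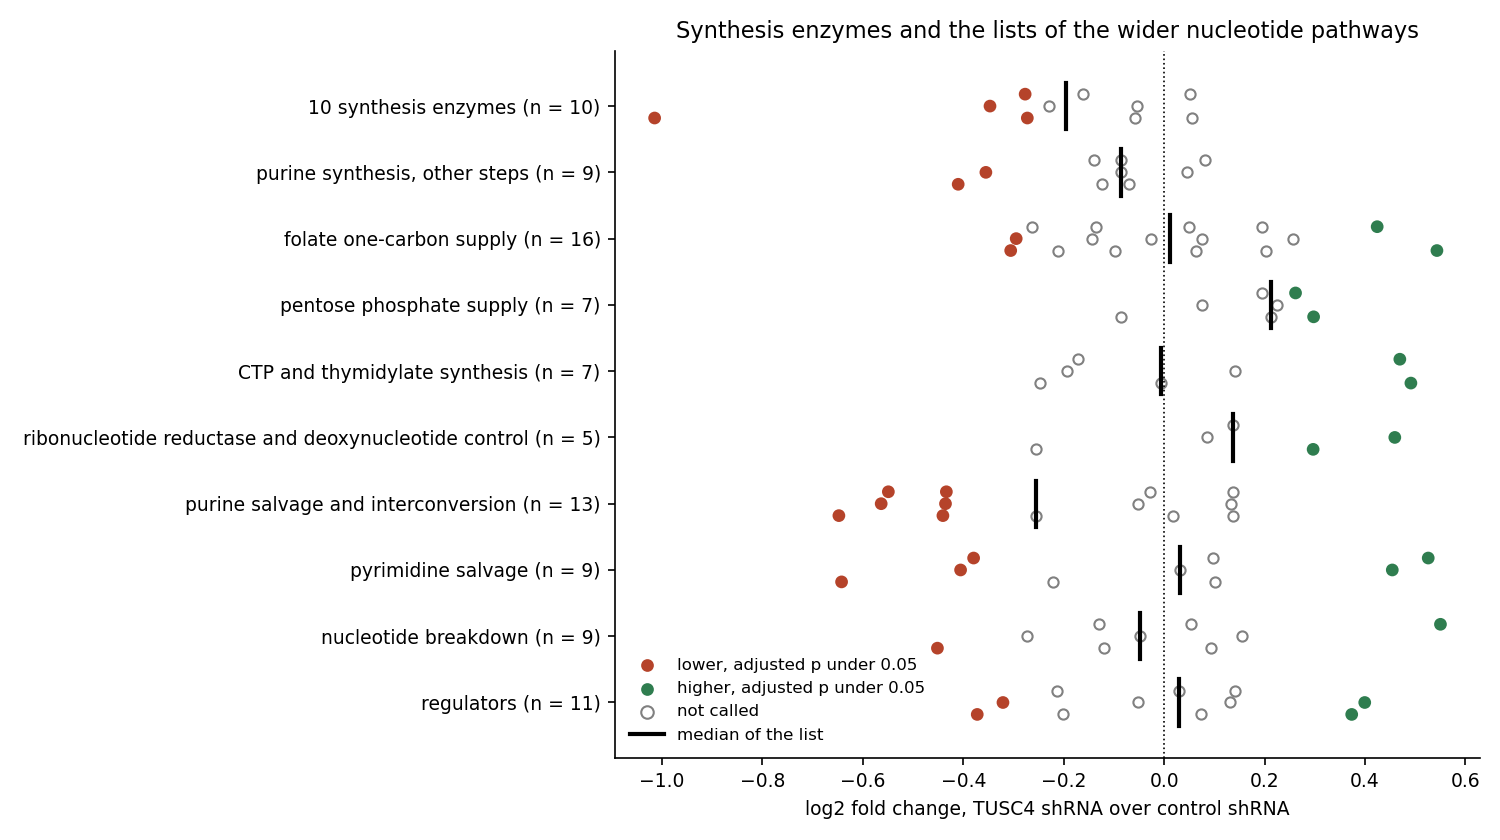
Log2 fold change (TUSC4 shRNA over control shRNA, horizontal axis) of each measured gene in the 10 synthesis enzymes and in 9 lists of the wider pathways, with the list's median as a black bar. Red points were called lower, green points higher and open points neither. The synthesis enzymes, the other steps of purine synthesis and purine salvage have red points and no green ones. The pentose phosphate, CTP and thymidylate, and deoxynucleotide control lists have green points and no red ones.

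Pyrimidine salvage had 2 genes higher and 3 lower of 9, a share called of 55.6% beside 26.9% of all genes, with a median of 0.03. The S-phase thymidine kinase TK1 had 10.41, 10.60 and 10.40 with the TUSC4 shRNA, against 10.93, 11.22 and 11.19 with the control shRNA, with no overlap. TK1 changed by -0.64 ± 0.11 on the log2 scale (limma adjusted p = 0.000386), and the cytidine deaminase CDA had -0.41 ± 0.10 (limma adjusted p = 0.00916), a call lost without control replicate 3. The remaining lower gene was the uridine phosphorylase UPP1 at -0.38 ± 0.11, named after its values were seen. UPRT rose by 0.53 ± 0.10 and ECGF1 (TYMP), thymidine phosphorylase, by 0.45 ± 0.10, calls that ended with median scaling or no normalization, that of ECGF1 also with the mean of probes. In CTP and thymidylate synthesis 2 of 7 genes rose, DCTD, a dCMP deaminase, by 0.49 ± 0.09 and CMPK1, which phosphorylates UMP and CMP, by 0.47 ± 0.10, and both calls ended with median scaling or no normalization. The share called in that list was 28.6%, near the 26.9% of all genes. In deoxynucleotide control 2 of 5 rose, beside 13.3% of all genes, thioredoxin (TXN) by 0.46 ± 0.10 and RRM2B, the p53-induced reductase subunit, by 0.30 ± 0.10. The TXN call ended without normalization (limma adjusted p = 0.0623). The RRM2B call was lost in 11 of 15 alternatives, all control arrays left out in turn and TUSC4 replicates 1 and 3 included.

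Among 9 measured genes of nucleotide breakdown 22.2% were called, beside 26.9% of all genes. ITPA, which clears inosine triphosphate, rose by 0.55 ± 0.10 and the adenosine deaminase ADA had -0.45 ± 0.11, 1 gene in each direction. The ITPA call ended with median scaling or no normalization. With median scaling 3 genes of this list were lower, beside 22.6% of all genes under that setting, and the list's median was -0.17. Of 11 measured regulators 2 rose and 2 fell, a share called of 36.4% beside 26.9% of all genes. ATF4 had log2 intensities of 13.36, 13.33 and 13.20 with the TUSC4 shRNA, against 12.91, 12.93 and 12.86 with the control shRNA, and rose by 0.40 ± 0.09 (limma adjusted p = 0.00515). The ATF4 groups did not overlap, and its call ended without normalization (limma adjusted p = 0.0604). E2F1, a driver of S-phase genes, rose by 0.37 ± 0.12 (limma adjusted p = 0.0252). RB1, its inhibitor, had -0.37 ± 0.12 (limma adjusted p = 0.0330) and RPS6KB1, the S6 kinase gene, -0.32 ± 0.11 (limma adjusted p = 0.0376). The E2F1 call was lost without control replicates 1 or 3 or TUSC4 replicates 1 or 3, and with median scaling or no normalization. The RB1 call was lost without any 1 control array or TUSC4 replicates 2 or 3. The RPS6KB1 call was lost without control replicates 1 or 3 or any 1 TUSC4 array. MYC, a known activator of nucleotide synthesis genes named after its values were seen, had 0.13 ± 0.13 (limma adjusted p = 0.487). With median scaling the medians of the folate, pyrimidine salvage and regulator lists were -0.12, -0.15 and -0.14. Those lists then had 5 of 16, 4 of 9 and 4 of 11 genes lower, beside 22.6% of all genes.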

How the data were processed

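Illumina expression arrays were hybridised with biotin-labelled RNA from 6 U2OS samples. The deposited intensity values are the average bead signal per probe, not normalized between arrays, as column names and values show. BeadStudio was used, per the submitters' processing notes (version not given in the sources used here). Deposited with the same study, the authors' log2 values of the same arrays share 1 distribution with a median of 6.89, and their scale is log2 with centring and offset unstated. They served as an alternative.

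Intensities were background-corrected with limma's normexp (offset 50), quantile-normalized and put on the log2 scale. Adding an offset brings fold changes of dim probes closer to 0. Without detection p-values, background per array was taken as the mode of log2 signal (bandwidth 0.05), with the SD from probes below it. Probes with an estimated one-sided p under 0.05 on at least 3 arrays were kept, 20657 in all, and each of 15300 genes was represented by its brightest kept probe. Groups were compared with limma 3.58.1 (lmFit, eBayes, R 4.3.3) without covariates, with Benjamini-Hochberg adjustment over all genes, and member probes with the same fit over all kept probes. The fit was tested on simulated data. Pairs of members were compared by exact permutation over samples. Alternatives were background correction, offset, normalization, values, filter, probe rule, replicate block and each array left out. Symbols were matched to RefSeq (GRCh38.p14) for neighbours only, 12285 of the genes tested, and 9 of 10 members matched its promoter table, ADSL not among them. Named genes were all members, TUSC4 and, from each list, up to 4 called genes with the smallest p. Members and lists were chosen with earlier results of these data known.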

Additional observations from a re-analysis of the deposited data

How the results depend on the processing

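The count of enzymes called lower was 4 of 10, beside 13.6% of all genes tested, a share given in brackets for each alternative. Without the filter, where 31334 genes were tested, 2 enzymes were lower (6.41%), and 2 with the replicate block (13.4%). When 1 array was left out the count was 1 to 3 (10.1% to 13.3%), 1 without control replicate 1 (10.1%). No background correction (12.8%), an offset of 16 (12.4%) and probe means (13.6%) each gave 3. So did the log2 values of the authors (12.9%), while a stricter filter gave 3 of 8 (15.6% of 11950 genes). Median scaling (22.6%) and no normalization (23%) each gave 5. They moved the median of all genes to -0.12 and -0.16. Genes higher and lower were then 619 and 3457, or 384 and 3514, in place of 2035 and 2088. Genes called in all were 4123, and 3037 to 4072 with 1 array left out. Values that were not called changed sign for 4 genes. PRPS2 had -0.19 with median scaling, -0.23 without normalization and -0.030 to 0.14 with 1 array left out. CAD had -0.14, -0.18 and -0.026 to 0.10 under the same settings. DHODH had 0.054 with the mean of probes and -0.18 to 0.12 with 1 array left out. GART had -0.11 to 0.036 with 1 array left out and 0.092 relative to its 50 neighbours, an alternative chosen after seeing the data. The difference PPAT minus PAICS was -0.051 with median scaling or no normalization, -0.052 with the mean of probes, 0.15 with the authors' values and 0.050 to 0.10 with 1 array left out. PRPS1 minus PRPS2 stayed between -1.19 and -0.95 with 1 array left out. The cause of these changes was not tested. The samples share only a replicate number, with correlations of same-numbered deviations of 0.0985, 0.0537 and -0.105, and not every sample correlated best with its own number. The replicate block gave 2020 higher and 2057 lower genes. Of 26 named list genes 8 were called in every alternative and 18 in fewer, and all 26 kept their direction. The number of arrays limits the precision throughout, and UMPS and DHODH lie near background.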
